A study of Mus musculus with 12 samples.

Results

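The clustered histone genes are the protein-coding genes whose symbols begin with Hist1h, Hist2h, Hist3h or Hist4h, or carry the newer names H2ac, H2bc, H3c or H4c followed by a digit. The rule found 67 of the 55421 genes in the count table. It took 6 genes of linker histone H1, 18 of H2A, 18 of H2B, 12 of H3 and 13 of H4. By position in the mouse genome build GRCm38, 54 members of the Hist1 cluster lie on chromosome 13, 10 members of the Hist2 cluster on chromosome 3, 2 Hist3 genes on chromosome 11 and 1 gene, Hist4h4, on chromosome 6. Each family was read from the gene symbol, as the rule was, and no protein sequence was checked. In the annotation 61 of the 67 members have a single exon.

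Core histones H2A, H2B, H3 and H4 form the protein spool around which DNA is wound, and H1 binds the DNA that enters and leaves it. Most clustered histone genes are active while DNA is copied in S phase, when new chromatin needs histone protein, and NPAT switches them on at the histone locus body. Their mRNAs usually end without a poly(A) tail in a short stem-loop that SLBP binds, which couples processing, translation and decay of the mRNA to DNA synthesis. Some clustered genes also give polyadenylated mRNA, which is known from resting and differentiated cells. CD8 T cells divide rapidly after an infection and most effector cells are then lost, so the family reports on how far a population is from that burst of division.

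RNA was measured in OT-I cells, CD8 T cells with a transgenic receptor for an ovalbumin peptide, of the genotypes Rroid2 WT (wild-type) and Rroid2 KO (knockout). Donor cells of either genotype had been transferred into host mice, which received Listeria monocytogenes expressing ovalbumin (LM-OVA), and were sorted from the spleen. Short-lived effector cells (SLEC) came from day 7 and from day 14, and memory precursor effector cells (MPEC) from day 14 only. With WT and KO cells of each of these 3 populations, the 12 libraries form 6 groups of 2. Neither the allele, the age and strain of donors and hosts nor the sorting gates are stated, and nothing says that paired libraries are different mice, so p-values measure only the spread between libraries, which may be technical. No gene of the table bears the symbol Rroid2, so the targeted locus could not be checked by its own count.

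The stem-loop that defines these mRNAs was searched for in the annotated transcripts, as 6 base pairs beginning with GG around a loop of 4 bases beginning with TT, within 150 bases after the stop codon. It was found in 44 members. Of the 48 members annotated with 60 or more bases after the stop codon 42 held it (87.5%), against 52 of 20535 protein-coding genes searched (0.253%), of which 10 were not members. The element begins 22 to 59 bases after the stop codon, with a median of 32. Stems differ between families, and the forms are shown because H4 transcripts carry their own. Capitals mark the whole element, given 5′ to 3′ as DNA letters on the strand of the gene, from GENCODE M21 transcripts.
Form in 26 members (3 H1, 10 H2A, 8 H2B, 5 H3): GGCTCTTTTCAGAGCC
Form in 6 members (1 H1, 2 H2B, 3 H3): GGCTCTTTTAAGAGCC
Form in 1 member (Hist2h2ac): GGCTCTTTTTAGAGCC
Form in 7 members (all H4): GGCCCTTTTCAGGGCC
Form in 2 members (all H4): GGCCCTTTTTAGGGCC
Form in 2 other members (all H4): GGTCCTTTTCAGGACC
None of the H4 forms was found in a member of another family. The 23 members without a match include 17 that are annotated with under 60 bases after the stop codon, 13 of them with none, so for most of these the element may lie past the annotated end.

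Promoters differ by family in the same way. RefSeq windows of 250 bases before the start, of the build GRCm38.p6, were matched for 62 of the 67 members and searched on both strands. The CCAAT box stood in all 6 H1, all 18 H2A and all 16 H2B windows, in 8 of 10 H3 windows and in 3 of 12 H4 windows, against 34.5% of 27025 promoters. AAACACA, an element of H1 promoters, was present in 5 of 6 H1 windows and in 6.22% of all promoters. GGTCCG, an element of H4 promoters, was present in 9 of 12 H4 windows and in 6.82% of all promoters. The octamer ATTTGCAT, bound by OCT1, the product of Pou2f1, was present in 7 of 18 H2A windows and 6 of 16 H2B windows, in none of the H1, H3 and H4 windows, and in 1.61% of all promoters. TATAAA stood in 46.8% of the members' windows and in 13.0% of all. Some H2A and H2B windows overlap, such as those of Hist1h2ah and Hist1h2bk, so the same site can count in both families. A match is a description of letters in the window and not a measured site.

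The last 120 bases before the RefSeq start are shown for 5 members that fell (2 of H1 and 1 each of H2B, H3 and H4) and for 2 members not called over time in WT cells, Hist3h2a of H2A and Hist1h4i of H4. Each is printed 5′ to 3′ on the strand of the gene, in lower case, with the searched motifs of either strand in capitals.
Hist1h1c, H1, chr13:23738687-23738806, plus strand: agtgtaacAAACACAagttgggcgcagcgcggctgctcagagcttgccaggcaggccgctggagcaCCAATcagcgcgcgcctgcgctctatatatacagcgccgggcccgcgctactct
Hist1h1b, H1, chr13:21780626-21780745, minus strand: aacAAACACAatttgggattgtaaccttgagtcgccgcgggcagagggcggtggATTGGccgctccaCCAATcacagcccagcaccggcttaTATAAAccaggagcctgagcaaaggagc
Hist1h2bb, H2B, chr13:23746614-23746733, plus strand: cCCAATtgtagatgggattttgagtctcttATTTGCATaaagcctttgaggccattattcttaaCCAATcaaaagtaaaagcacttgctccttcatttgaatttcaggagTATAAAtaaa
Hist1h3d, H3, chr13:23575643-23575762, plus strand: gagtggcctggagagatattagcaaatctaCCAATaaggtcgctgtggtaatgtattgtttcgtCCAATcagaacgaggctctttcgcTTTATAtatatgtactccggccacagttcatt
Hist1h4d, H4, chr13:23581448-23581567, plus strand: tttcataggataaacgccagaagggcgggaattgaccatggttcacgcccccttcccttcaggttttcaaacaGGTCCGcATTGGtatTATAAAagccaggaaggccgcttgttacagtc
Hist3h2a, H2A, chr11:58954565-58954684, plus strand: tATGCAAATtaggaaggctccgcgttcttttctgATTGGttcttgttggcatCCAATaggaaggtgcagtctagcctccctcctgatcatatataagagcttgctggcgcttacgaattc
Hist1h4i, H4, chr13:22041363-22041482, minus strand: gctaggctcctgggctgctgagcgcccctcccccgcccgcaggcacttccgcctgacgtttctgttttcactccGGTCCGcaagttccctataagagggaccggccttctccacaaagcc
The GGTCCG of Hist1h4d is also present in Hist1h4i, and Hist3h2a holds the CCAAT box found in all H2A windows.

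Total counts per library ran from 7603551 to 14026594. Levels are given as counts-per-million values (CPM) on the TMM-scaled library size, and 3 counts in a library, the upper limit that a count of 0 allows, came to 0.19 to 0.412 CPM; such limits cover counting error only. Summed markers of CD8 T cells were at 3377 to 4755 CPM in every library. The SLEC markers Klrg1, Cx3cr1, Zeb2, S1pr5 and Gzma summed to 3493 to 6270.2 CPM in the SLEC libraries and to 230.4 to 275 CPM in the MPEC libraries. One pair of libraries stood apart: summed B cell markers (10 genes) were at 257 and 1154 CPM in WT SLEC day 14, against 1.67 to 120.02 CPM in the others. In the same pair summed monocyte and macrophage markers were at 55.2 and 42.5 CPM, against 6.73 to 29.3 CPM elsewhere, and neutrophil markers at 46.4 and 4.30 CPM, against 0 to 5.44 CPM elsewhere. WT SLEC day 7 replicate 1 stood apart in the cell cycle lists, as described with the genotype comparison below.

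Histone transcripts held a small and very unequal share of the counts. The 67 members took 0.346% of the counts in WT SLEC day 7 replicate 1 (95% Wilson interval 0.343 to 0.349) and 0.733% in replicate 2 (0.728 to 0.738). They took 0.686% (0.682 to 0.690) and 0.512% (0.508 to 0.516) in the KO SLEC day 7 libraries. In the 8 day 14 libraries the share lay between 0.0711% and 0.124%. All day 14 libraries were thus below all day 7 libraries, and the SLEC and MPEC ranges on day 14 overlapped.

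Of the 67 members 55 passed the filter on low counts and were tested. Another 7 had counts but were not tested, among them the testis forms Hist1h1t (12 counts over all libraries), Hist1h2aa (40 counts) and Hist1h2ba (1 count). The remaining 5 had 0 counts in all 12 libraries, which allows up to 0.0215 CPM. Those 5 are near copies of other members, with 0 to 13.6% of their 100-base stretches found in no other gene. Over the 67 members, counts and the share of such unique stretches had a Spearman rho of 0.476, a description across genes that share sequence. No source names how reads that match several genes were counted, so levels of the 25 members with under 50% unique stretches are uncertain and reads may have been split or dropped.

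**Figure D1:**
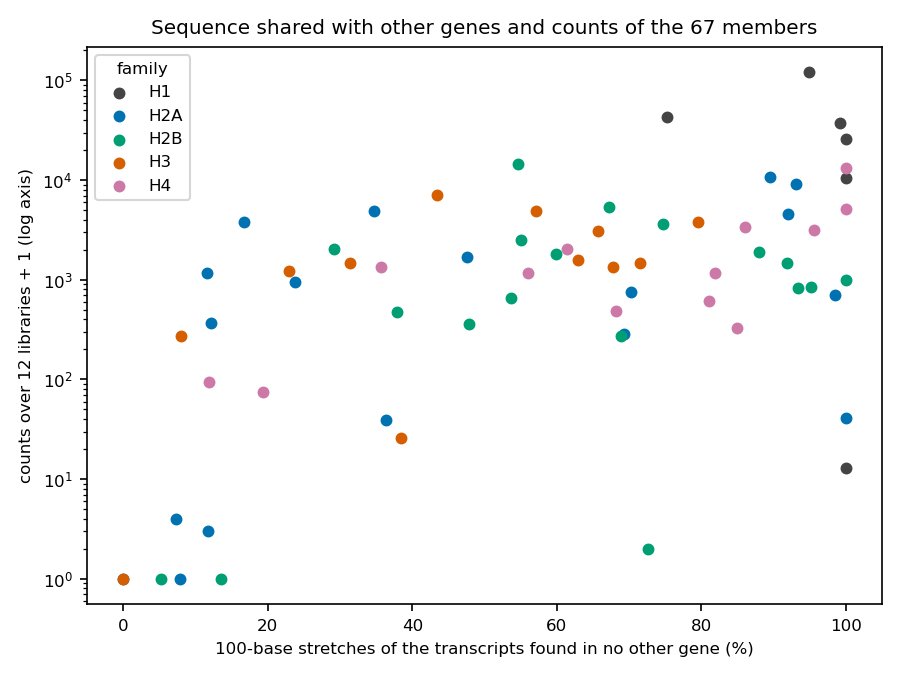
Counts summed over the 12 libraries, plus 1, on a log axis (y) against the percentage of 100-base stretches of a member's annotated transcripts that occur in no other gene (x), with 1 point per member of the 67, coloured by family. The members with 0 counts all lie at 13.6% or less, and the H1 genes with the highest counts lie at 75.3% or more.

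Levels between genes were compared per kilobase of annotated exon. In WT SLEC on day 7 the highest was the H1 gene Hist1h1c at 1000.4 CPM per kilobase, followed by Hist2h2bb (H2B) at 621, Hist1h1b (H1) at 559 and Hist1h2ak (H2A) at 442. The highest H3 gene was Hist1h3b at 212 and the highest H4 gene Hist1h4d at 167 CPM per kilobase. Family medians over tested members were 293 for H1, 41.4 for H2A, 22.2 for H2B, 47.1 for H3 and 43.3 for H4. The spread within a family was wider than between the core families, for example 2.25 to 442 in H2A. KO cells had the same leading gene in each family. Annotated length varies (Hist1h1d is annotated with 7425 bases of exon and Hist1h1b with 743), which moves a level per kilobase. Hist2h2bb shares its strand and part of its span with Gm42743, and 54.6% of its 100-base stretches are found in no other gene.

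**Figure D2:**
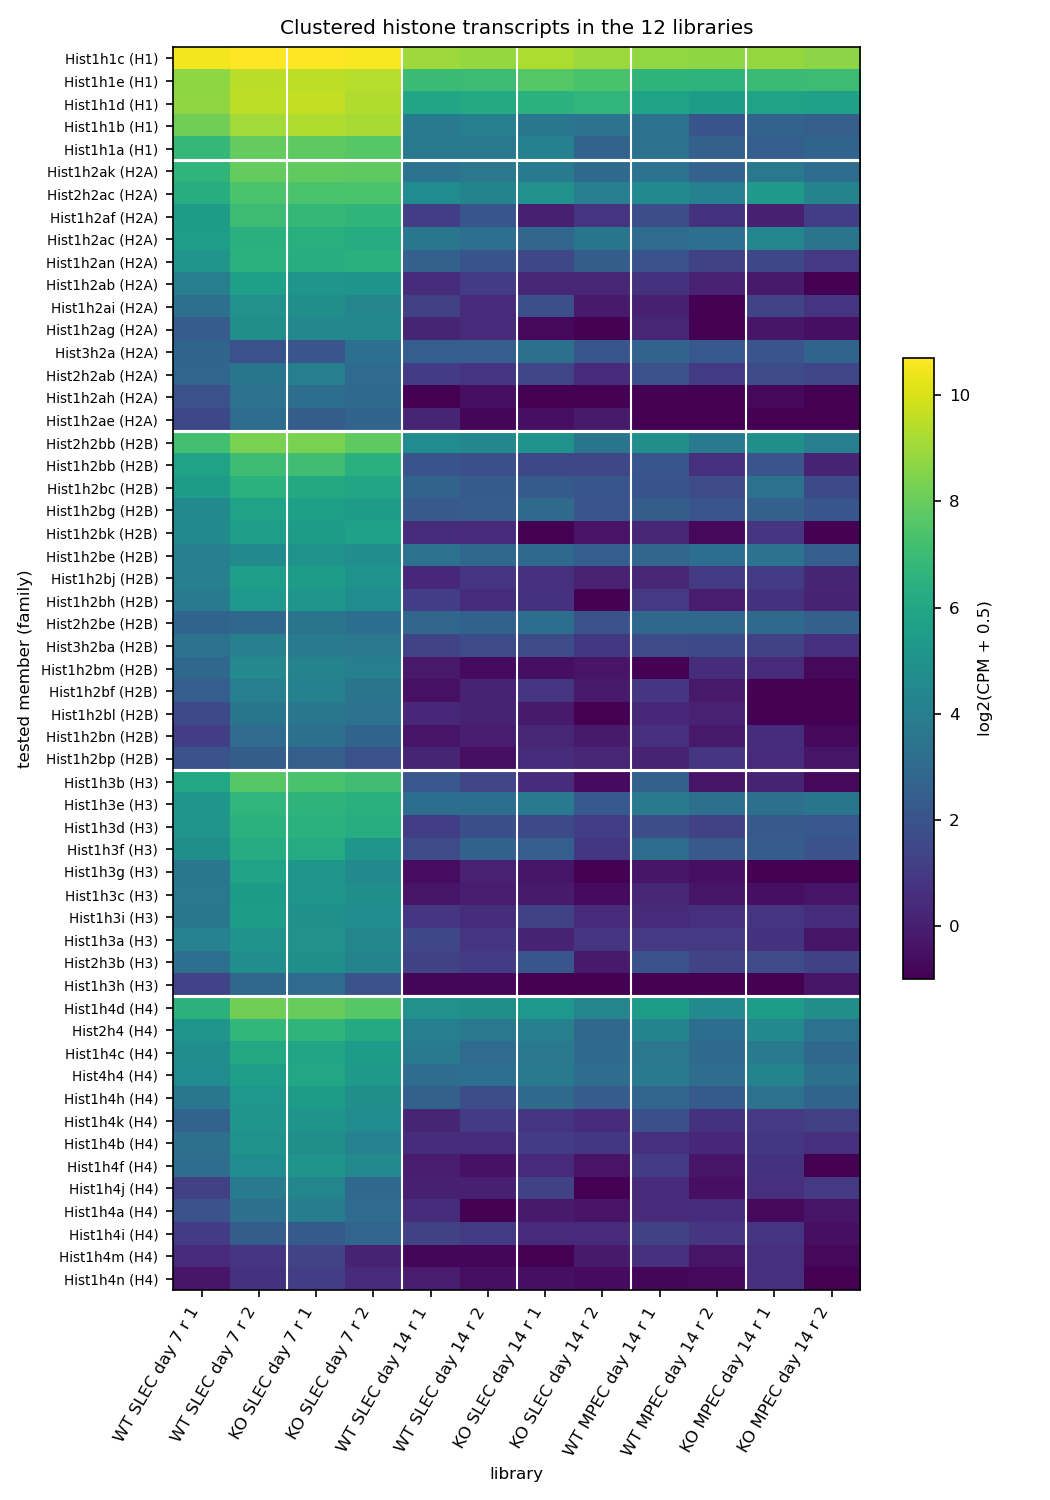
Colour gives log2(CPM + 0.5) of each tested member (rows, 55 genes, grouped by family and ordered by mean CPM) in each of the 12 libraries (columns, r is replicate). The 4 day 7 columns on the left are brighter in nearly every row; Hist3h2a and Hist2h2be keep about 1 shade across the plot.

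Between day 7 and day 14 the histone transcripts of SLEC fell together. In WT cells 48 of the 55 tested members were lower on day 14 and 0 were higher at an edgeR adjusted p under 0.05. A member could pass the filter on low counts through its day 7 libraries alone. With only the SLEC groups of day 14 in the fit, 39 members passed it. Over all 14460 genes tested, 9.94% were called in this comparison and 5.25% were called lower. The members' log2 changes had a median of -3.76 and ran from -6.41 to 0.09, where all genes had a median of 0.01. In KO cells 51 of 55 members were lower and 0 higher, against 17.2% of all genes called and 9.5% called lower. The median there was -3.93, against -0.01 over all genes. The 48 members called in WT cells were all called in KO cells too (100% of the WT list and 94.1% of the KO list). For 50 of 55 members the 4 day 7 libraries all lay above the 4 SLEC libraries of day 14, a count that was not made over all genes. A smaller share of cells in S phase and less histone RNA per cell cannot be told apart in such bulk samples.

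Linker histones fell by unequal amounts. All 5 tested H1 genes were called in both genotypes. Hist1h1c (H1.2) stood at 1452 and 1669.6 CPM in the WT SLEC libraries of day 7 and at 513 and 467 CPM on day 14. In KO cells Hist1h1c had 1652 and 1543 CPM on day 7 and 620.1 and 488 CPM on day 14. The days did not overlap, and the fall was the smallest of the H1 genes, with log2 changes of -1.67 ± 0.15 (SE; edgeR adjusted p = 7.2e-06) in WT and -1.53 ± 0.15 (edgeR adjusted p = 7.9e-06) in KO cells.

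Hist1h1b (H1.5) stood at the other end. It had 284 and 546 CPM in WT and 632 and 580.0 CPM in KO cells on day 7. On day 14 it had 13.5 and 15.6 CPM in WT and 11.5 and 10.6 CPM in KO SLEC. The days did not overlap, with log2 changes of -4.83 ± 0.35 in WT (28.4-fold lower, edgeR adjusted p = 2.8e-05) and -5.77 ± 0.38 in KO cells (edgeR adjusted p = 8.4e-06). In WT cells the log2 change was -2.15 ± 0.20 for Hist1h1e (H1.4), -3.16 ± 0.23 for Hist1h1d (H1.3) and -3.80 ± 0.46 for Hist1h1a (H1.1). Among the summed H1 CPM, the share of Hist1h1c thus moved from 48.3 ± 7.96% (SD, n = 2) in WT SLEC on day 7 to 69.0 ± 2.68% on day 14, and that of Hist1h1b from 12.3 ± 2.40% to 2.05 ± 0.27%. In KO SLEC the share of Hist1h1c moved from 41.6 ± 1.12% to 64.8 ± 2.30%, and that of Hist1h1b from 15.8 ± 0.23% to 1.30 ± 0.10%. For both genes and in both genotypes the 2 days did not overlap; no test was run on these shares.

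H2A genes fell in 11 of 12 tested cases in either genotype, with medians of -3.94 in WT and -4.30 in KO cells. Hist1h2ak had 101 and 247 CPM in WT SLEC on day 7 and 10.6 and 11.96 CPM on day 14. It fell by 3.94 ± 0.44 on the log2 scale (edgeR adjusted p = 0.00086), and its KO libraries moved from 232 and 221 CPM to 13.3 and 7.83 CPM. Hist2h2ac of the Hist2 cluster, whose stem-loop form no other member has, moved less. Its CPM were 77.0 and 166 on day 7 and 25.2 and 19.2 on day 14 in WT cells, a log2 change of -2.46 ± 0.44 (edgeR adjusted p = 0.0096). Hist1h2af went from 43.3 and 129 CPM to 1.77 and 3.86 CPM in WT and from 112 and 102 CPM to 0.506 and 1.24 CPM in KO cells. Hist1h2ah had 0 counts in both KO SLEC libraries of day 14 against 7.76 and 8.93 CPM on day 7, and taking 3 counts in that group as the limit it fell by at least 5.59 on the log2 scale.

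Hist3h2a on chromosome 11 was the H2A gene that was not called. It had 6.36 and 3.30 CPM in WT SLEC on day 7, 5.15 and 5.06 CPM on day 14, and 3.72, 9.29, 9.51 and 3.85 CPM in the KO SLEC libraries in the same order of days. The days overlapped, and the log2 change was 0.09 ± 0.50 in WT and 0.18 ± 0.51 in KO cells (edgeR adjusted p = 0.95 and 0.85). Its only Hist3 neighbour, the H2B gene Hist3h2ba, fell by 2.41 ± 0.39 in WT cells. Hist3h2a shares its strand and part of its span with another annotated gene, Trim17, so that reads of both cannot be told apart.

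H2B genes fell in 14 of 15 tested cases in each genotype, with medians of -3.66 in WT and -3.92 in KO cells. Hist2h2bb, the highest H2B gene per kilobase, had 144 and 329 CPM in WT SLEC on day 7 and 24.9 and 20.6 CPM on day 14. KO libraries of Hist2h2bb had 325 and 225 CPM and then 31.2 and 11.3 CPM. Hist1h2bb, whose promoter is printed above, went from 54.4 and 133 CPM to 3.61 and 3.16 CPM in WT cells, a log2 change of -4.79 ± 0.62 (edgeR adjusted p = 0.0023). The gene Hist1h2bk fell further, from 22.6 and 46.5 CPM to 0.883 and 0.823 CPM in WT (log2 change -5.33 ± 0.52, 40.2-fold lower, edgeR adjusted p = 7.2e-06) and from 43.7 and 51.3 CPM to 0 and 0.275 CPM in KO cells.

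Hist2h2be, chosen like Hist3h2a and the uncalled H4 genes after its values were seen, was the H2B gene not called. Hist2h2be had 6.28 and 7.14 CPM in WT SLEC on day 7 and 6.77 and 5.63 CPM on day 14, a log2 change of -0.12 ± 0.38 (edgeR adjusted p = 0.89). In KO cells Hist2h2be had 11.01 and 8.78 CPM and then 8.90 and 3.44 CPM (-0.62 ± 0.39, edgeR adjusted p = 0.30). Hist1h2be fell by 1.18 ± 0.31 in WT (edgeR adjusted p = 0.021), and its log2 change in KO cells was -2.18 ± 0.35. It is annotated with 5 exons over chr13:23583670-23621124 and shares its strand and part of its span with Hist1h1e, so its counts may hold reads of that neighbour.

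All 10 tested H3 genes fell in both genotypes, with medians of -4.62 in WT and -5.02 in KO cells, the lowest of the 5 families in each. Hist1h3b, the highest H3 gene per kilobase, had 62.0 and 201 CPM in WT SLEC on day 7 and 4.05 and 2.21 CPM on day 14. Its KO libraries went from 162 and 138 CPM to 0.911 and 0.137 CPM. Hist1h3c had 12.5 and 40.5 CPM and then 0.294 and 0.443 CPM in WT cells, a log2 change of -6.11 ± 0.63 (69.0-fold, edgeR adjusted p = 7.2e-06). The smallest H3 change in WT cells was that of Hist1h3e, from 35.8 and 104 CPM to 8.83 and 8.80 CPM, a log2 change of -2.99 ± 0.53 (edgeR adjusted p = 0.0086).

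H4 genes were called least often, 8 of 13 in WT and 11 of 13 in KO cells, with medians of -2.72 and -2.96. Hist1h4d, the highest H4 gene, went from 92.2 and 289 CPM to 29.9 and 28.0 CPM in WT cells, a log2 change of -2.72 ± 0.60 (edgeR adjusted p = 0.034). KO libraries of Hist1h4d went from 249.7 and 205 CPM to 37.7 and 19.8 CPM. Hist1h4f fell further, from 8.58 and 25.3 CPM to 0.442 and 0.253 CPM (log2 change -5.60 ± 0.77, edgeR adjusted p = 0.00022). The 5 H4 genes not called in WT cells were Hist2h4, Hist1h4i, Hist1h4j, Hist1h4m and Hist1h4n. Hist2h4, Hist1h4j and Hist1h4i were called in KO cells, with log2 changes of -2.81 ± 0.74, -3.68 ± 1.04 and -2.70 ± 0.75. Their WT log2 changes were -2.30 ± 0.68, -3.88 ± 1.16 and -0.96 ± 0.59 (edgeR adjusted p = 0.085, 0.057 and 0.36). Hist1h4m and Hist1h4n, with 93 and 74 counts over all libraries, were called in neither.

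**Figure D3:**
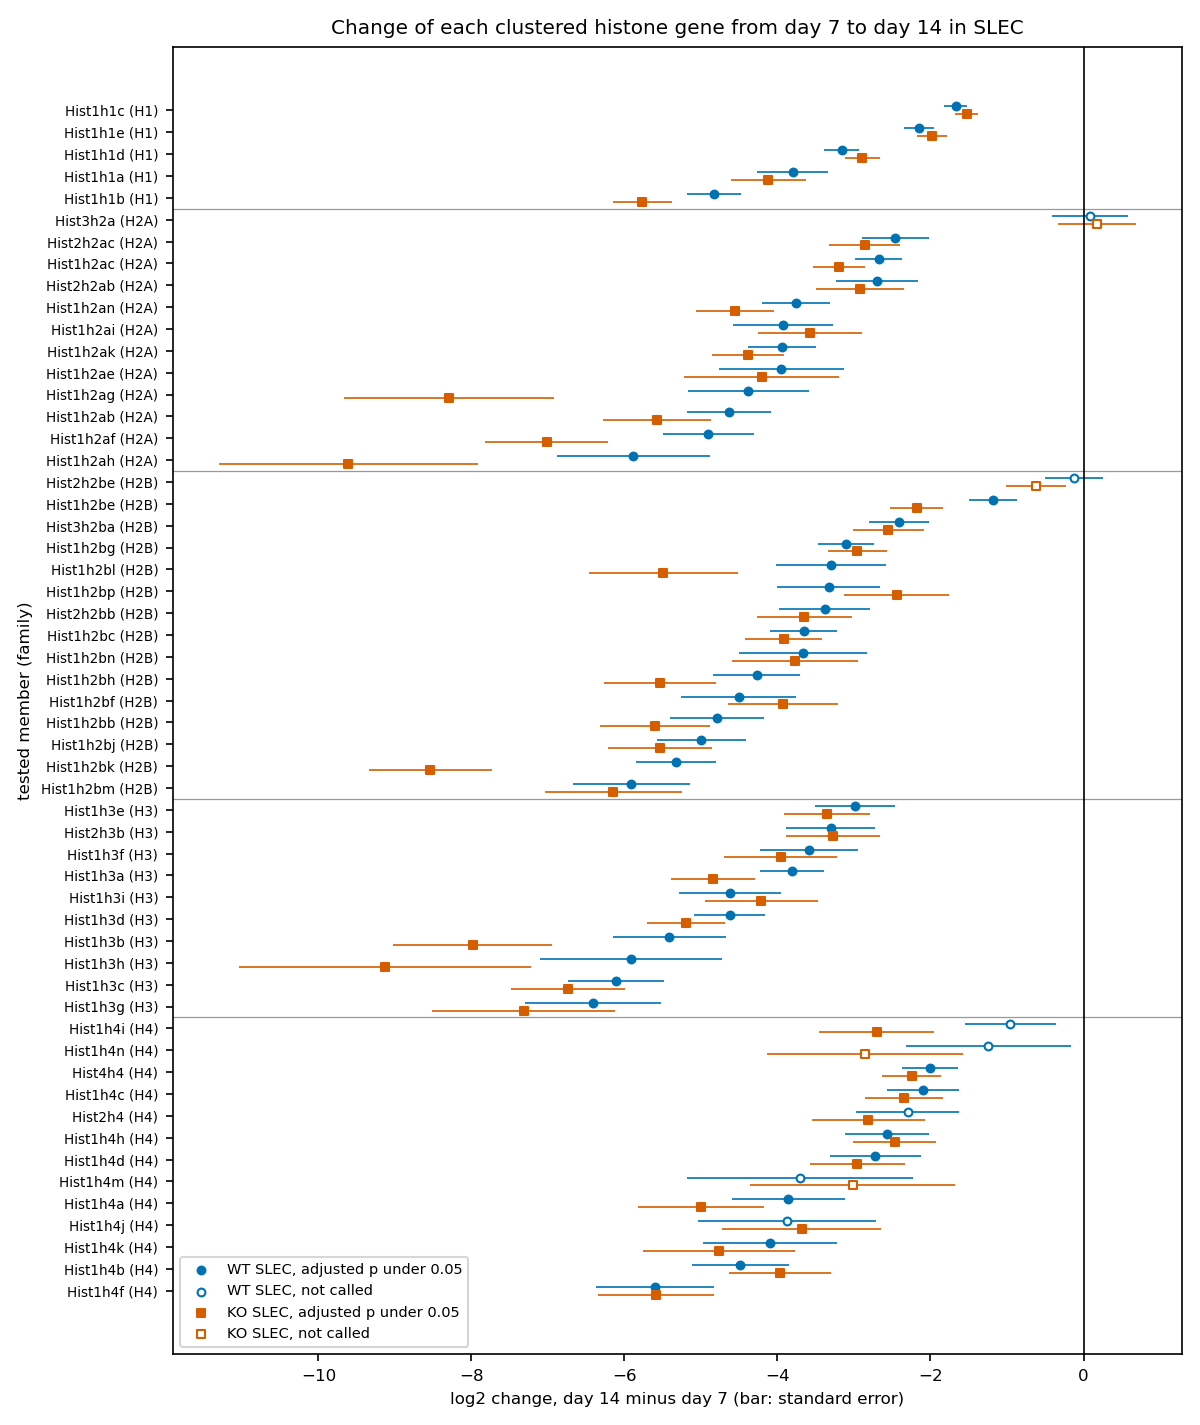
Log2 change from day 7 to day 14 in SLEC (x, with the standard error as a bar) for each of the 55 tested members (rows, grouped by family), in WT (circles) and KO cells (squares); filled symbols passed an edgeR adjusted p under 0.05. Nearly all symbols lie left of 0, H1 genes spread from -1.67 (Hist1h1c) to -4.83 (Hist1h1b) in WT cells, and Hist3h2a and Hist2h2be lie nearest to 0.

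Members were also read by the annotated end of their transcripts. Among tested members annotated to end within 60 bases of the stem-loop (16 genes) the median log2 change in WT SLEC was -4.50, with 14 called. Among those annotated to run 300 bases or more past it (16 genes) the median was -2.49, with 12 called. The KO medians were -5.19 and -2.85. Hist1h1c, Hist1h1d, Hist1h1e, Hist3h2a, Hist1h2be and Hist1h4d belong to the longer kind. So do members with steep falls in mean CPM in WT SLEC, such as Hist1h3d (60.5 to 2.40) and Hist1h2bh (25.9 to 1.36). The split was made on these data, the difference was not tested, and both kinds were measured with libraries made from total RNA. The 14 tested members with 90% or more unique 100-base stretches had a WT median of -2.69, and the 6 with under 20% a median of -3.84.

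Genes of S phase and mitosis were read beside the histones, from lists written with earlier results of these data known. Of 28 genes of G2 and M phase, 27 were lower on day 14 in WT SLEC and 28 in KO SLEC, with medians of -3.55 and -4.80. Mki67, the proliferation antigen, fell by 3.99 ± 0.62 in WT (edgeR adjusted p = 0.010) and had a log2 change of -4.81 ± 0.66 in KO cells. Of 34 genes of S phase and replication, 11 were lower in WT and 18 in KO cells, with medians of -1.33 and -1.57. Pcna, the sliding clamp of DNA polymerases, fell by 1.34 ± 0.20 in WT cells (edgeR adjusted p = 0.00038), while Mcm5, a subunit of the replicative helicase, had a log2 change of -1.46 ± 0.67 (edgeR adjusted p = 0.26). Summed over members, core histone transcripts were at 1168 and 3035 CPM in WT SLEC on day 7 and at 233 and 202 CPM on day 14. The sum of the S phase list went from 1077 and 3267 CPM to 969 and 1021 CPM in the same libraries. The core histone sum per unit of the S phase sum was 1.01 ± 0.11 (SD, n = 2) in WT SLEC on day 7 and 0.22 ± 0.03 on day 14. In KO SLEC it was 1.13 ± 0.06 and 0.21 ± 0.09. Per unit of the G2 and M phase sum it was 0.75 ± 0.02 and 0.85 ± 0.22 in WT SLEC and 0.75 ± 0.10 and 1.15 ± 0.69 in KO SLEC, where the days overlapped. No test was run on these ratios.

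**Figure D4:**
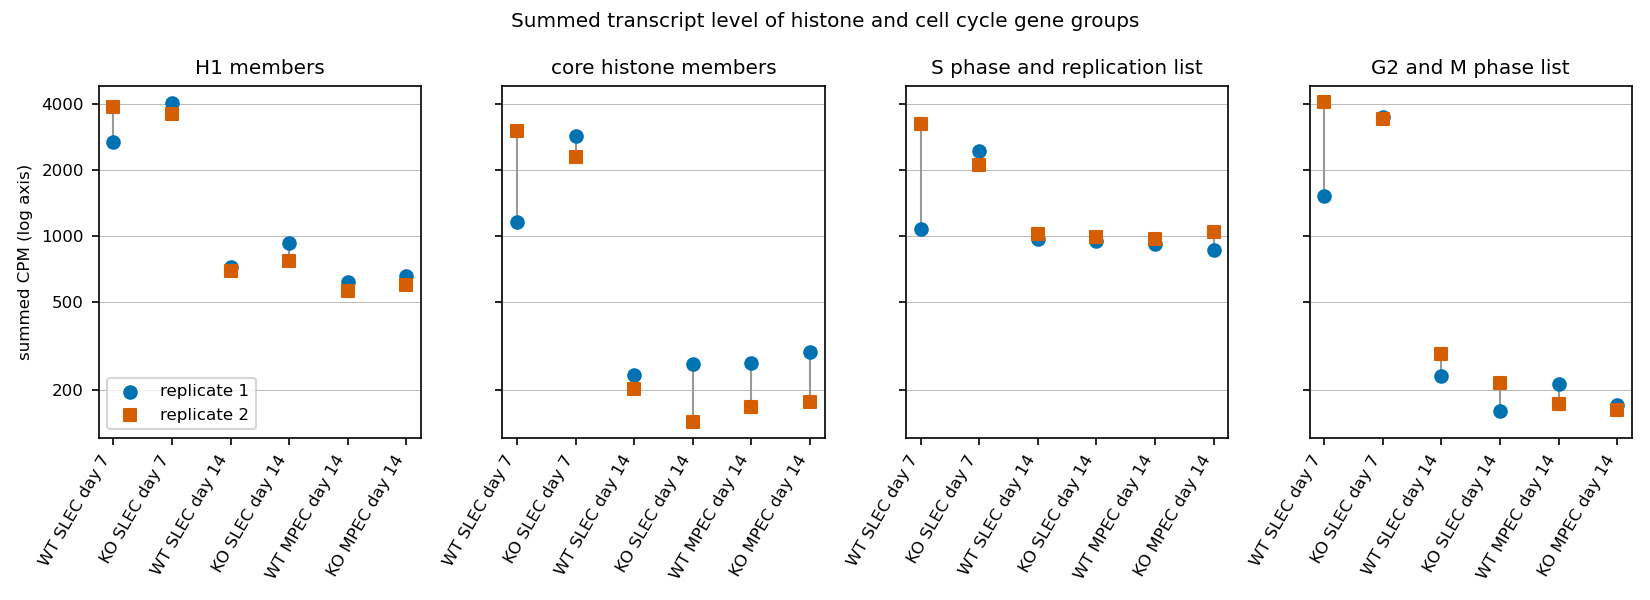
Summed CPM per library on a log axis (y) for the H1 members, the core histone members, the S phase and replication list and the G2 and M phase list, in the 6 groups (x), with 1 point per library joined by a line within a group. Core histones and the G2 and M phase list lie far lower in all day 14 groups than on day 7, and WT SLEC day 7 replicate 1 lies below its partner in all 4 panels.

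The machinery of histone mRNA moved less than the mRNAs. Of 22 genes for transcription, 3' processing and decay of histone mRNA, 2 were lower and 1 was higher on day 14 in WT SLEC, and 6 were lower and 1 was higher in KO SLEC. Those lower in WT cells were the cyclin E genes Ccne2 (-3.03 ± 0.61, edgeR adjusted p = 0.0069) and Ccne1 (-1.38 ± 0.35, edgeR adjusted p = 0.023), whose kinase acts on NPAT. Pou2f1, which encodes OCT1, rose by 0.85 ± 0.19 in WT (edgeR adjusted p = 0.0084) and 1.06 ± 0.20 in KO cells. Slbp, the stem-loop binding protein, had a log2 change of -0.60 ± 0.19 in WT (edgeR adjusted p = 0.053) and fell by 0.75 ± 0.20 in KO cells (edgeR adjusted p = 0.014). Npat itself had log2 changes of 0.01 ± 0.19 and 0.06 ± 0.20 (edgeR adjusted p = 0.99 and 0.86).

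On a separate list of histone variants, 3 of 9 tested genes fell in WT and 5 of 9 in KO SLEC, with medians of -0.62 and -0.999. Cenpa, the centromere variant of H3, fell by 1.89 ± 0.20 in WT cells (edgeR adjusted p = 1.7e-05), and H2afx, the variant phosphorylated at DNA breaks, with -2.29 ± 0.30 (edgeR adjusted p = 0.00047). H2afv fell by 0.99 ± 0.18 (edgeR adjusted p = 0.0023). The abundant replacement genes H3f3b (-0.28 ± 0.14, edgeR adjusted p = 0.24) and H2afz (-0.25 ± 0.25, edgeR adjusted p = 0.60) did not pass the test. Of 24 histone chaperones 5 were lower in each genotype and 0 higher, among them Asf1b, which hands on new H3 and H4 (-2.22 ± 0.54 in WT cells, edgeR adjusted p = 0.027), and Mms22l (-1.02 ± 0.27, edgeR adjusted p = 0.024).

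Leaving out 1 library at a time gave 31 to 50 members called in WT SLEC, and 31 of the 48 were called in every one of the 12 omissions. The lowest count came without WT SLEC day 14 replicate 2, the library with 1154 CPM of B cell markers; 55 of 57 members tested were then still lower, with a median of -3.47, and the part of RNA from other cell types in the result was not tested. Without WT SLEC day 7 replicate 2 the WT median was -2.75, with 41 called, and without replicate 1 it was -4.28. Of the 10 B cell markers 9 were called higher on day 14 in WT SLEC and 0 in KO SLEC. For KO SLEC the counts ran from 39 to 51, and 39 of the 51 were called in every omission. The KO median ran from -3.56 without KO SLEC day 7 replicate 1 to -4.85 without KO SLEC day 14 replicate 1.

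With all 12 libraries in the edgeR fit, no clustered histone gene passed an adjusted p of 0.05 between KO and WT cells. On day 7, 0 of 55 members were called between KO and WT SLEC (0.0277% of all genes were), 0 had an unadjusted p under 0.05, and DESeq2 called 0. The log2 differences KO minus WT had a median of 0.33, with 51 of 55 above 0, against a median of 0.00 over all genes. The 3 smallest p-values were those of Hist1h2be (0.55 ± 0.28), Hist1h4a (0.80 ± 0.41) and Hist1h4f (0.75 ± 0.38), each at an edgeR adjusted p of 1.

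That tilt moved with single libraries. In WT SLEC on day 7, replicate 2 was above replicate 1 in 54 of 55 members, with a median ratio of 2.75. Over all genes replicate 2 was above in 7147 of 14460, with a median ratio of 1.00 after 0.5 CPM was added to both libraries. All 34 genes of the S phase list and all 28 of the G2 and M phase list were also higher in replicate 2, with median ratios of 3.87 and 2.57. The KO libraries of day 7 lay nearer to each other, with a median ratio of 1.25 between replicates 1 and 2. With WT replicate 2 left out, the median of the members rose to 1.25 and 1 of 55 was below 0. Members were called for this comparison in that omission alone, a fit that rests on a lone WT library of day 7. Hist1h4k then had a log2 difference of 2.31, Hist1h3d of 1.33 and Hist1h1b of 1.11. With WT replicate 1 left out instead, the median was -0.19 and 42 of 57 members were below 0. With KO replicate 1 left out, the median was 0.12 and 20 of 57 members were below 0. What set the WT libraries apart was not tested.

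**Figure D5:**
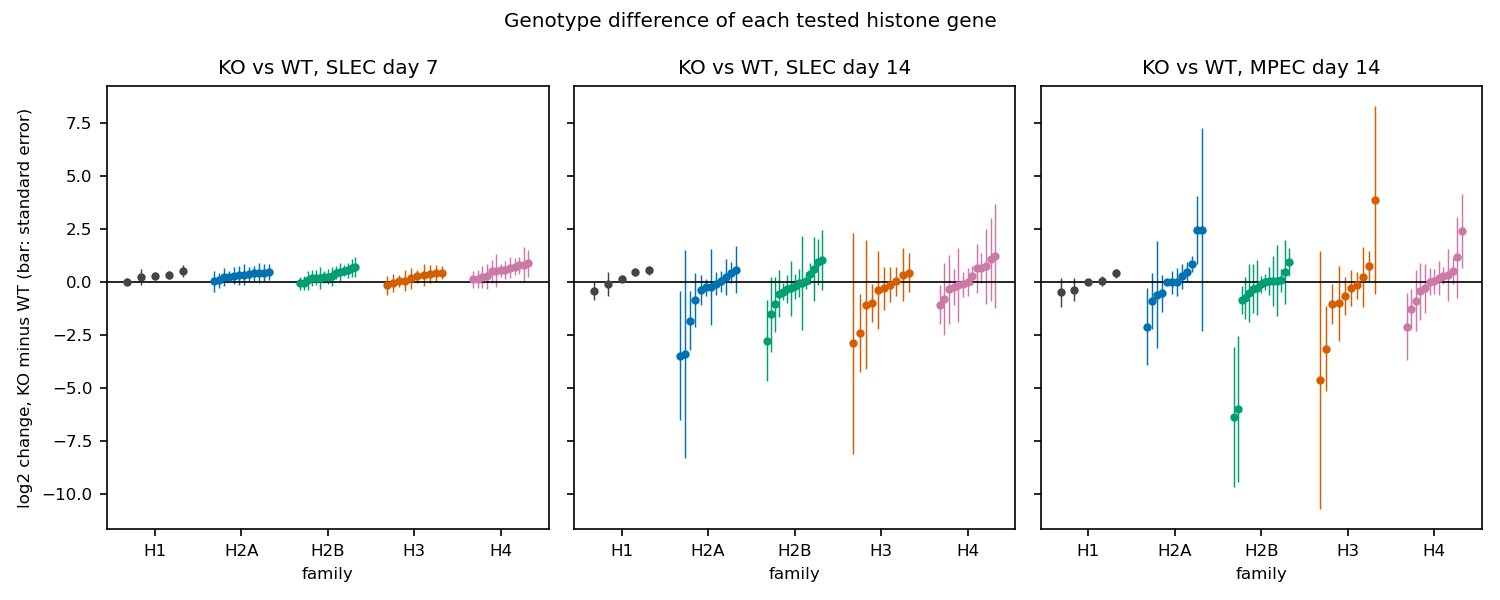
Log2 difference KO minus WT (y, with the standard error as a bar) of each tested member, grouped by family (x) and ordered by value within it, for the SLEC of each day and the MPEC (3 panels). On day 7 nearly all points lie just above 0 and on day 14 they scatter around 0, with long bars for members near 0 counts; none passed the test.

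On day 14, 0 of 55 members were called between KO and WT SLEC (0.539% of all genes were), with 2 at an unadjusted p under 0.05, a median difference of -0.11 and 22 of 55 above 0. The 2 were Hist1h1e at 0.50 ± 0.20 (edgeR adjusted p = 0.28) and Hist1h1d at 0.57 ± 0.22 (edgeR adjusted p = 0.30). Their libraries did not overlap: Hist1h1e had 196 and 164 CPM in KO and 124 and 129.7 CPM in WT SLEC, and Hist1h1d had 88.9 and 104 CPM in KO and 59.8 and 70.1 CPM in WT SLEC. In MPEC 0 of 55 were called (0.0138% of all genes), with a median of 0.00 and 2 at an unadjusted p under 0.05, Hist1h2ac (0.86 ± 0.37) and again Hist1h1e (0.42 ± 0.20), both at an edgeR adjusted p of 1. DESeq2 called 0 in each of the populations. Single libraries turned both medians: that of SLEC was -0.56 without KO SLEC replicate 1 and 0.16 without replicate 2, and that of MPEC was -0.45 without KO MPEC replicate 1 and 0.38 without WT MPEC replicate 1.

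Averaged over the 3 populations, 0 of 55 members were called (0.083% of all genes), with 2 at an unadjusted p under 0.05. Hist1h1e had the smallest p, with a mean difference of 0.42 ± 0.11 (edgeR adjusted p = 0.31). DESeq2 called this 1 gene, as did edgeR with no filter on low counts. Hist1h1e shares its strand and part of its span with Hist1h2be and Gm11398, so its counts may hold reads of both. Without WT SLEC day 7 replicate 2, edgeR called Hist1h1d and Hist1h1e. The difference of the KO effect between day 14 and day 7 in SLEC was called for 0 of 55 members (0.00692% of all genes), with 0 at an unadjusted p under 0.05. The difference between MPEC and SLEC on day 14 was likewise called for 0 members (0% of all genes), again with 0 at an unadjusted p under 0.05. DESeq2 called 0 in both. The log2 change over time was lower in KO than in WT cells for 40 of 55 members, and none of these differences passed the test. Without WT SLEC day 7 replicate 1 it was lower for 23 of 57, and the median of the differences went from -0.37 to 0.11. In SLEC, Hist1h1b, with a difference of -0.94 ± 0.51, had an edgeR adjusted p of 0.79.

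Between MPEC and SLEC of day 14 the one call among the members was an H1 gene, in KO cells. In WT cells 0 of 55 members were called (7.96% of all genes were), with 2 at an unadjusted p under 0.05, a median of -0.03 and 0 called by DESeq2. In KO cells 1 of 55 was called (5.11% of all genes), with a median of -0.05 that ran from -0.50 without KO MPEC replicate 1 to 0.60 without KO SLEC replicate 1. The 1 gene was Hist1h1d, with 53.3 and 51.6 CPM in KO MPEC and 88.9 and 104 CPM in KO SLEC, a log2 difference MPEC minus SLEC of -0.88 ± 0.23 (edgeR adjusted p = 0.037). In WT cells Hist1h1d had 54.5 and 44.3 CPM in MPEC and 59.8 and 70.1 CPM in SLEC (-0.39 ± 0.23, edgeR adjusted p = 0.36); the genotypes' difference in this contrast was -0.49 ± 0.32 (edgeR adjusted p = 1). The call in KO cells was lost with total counts as the only scaling and in 5 of the 12 omissions.

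All 5 tested H1 genes had negative log2 differences MPEC minus SLEC in both genotypes, with medians of -0.42 in WT and -0.88 in KO cells. Hist1h1e had 96.5 and 93.0 CPM in WT MPEC against 124 and 129.7 CPM in WT SLEC, and 126 and 128 CPM in KO MPEC against 196 and 164 CPM in KO SLEC. The libraries of Hist1h1e did not overlap in either genotype, and it missed the threshold in both (-0.42 ± 0.20, edgeR adjusted p = 0.23, and -0.50 ± 0.20, edgeR adjusted p = 0.18). Summed H1 transcripts were at 709 ± 19.6 CPM (SD, n = 2) in WT SLEC and 592 ± 36.1 CPM in WT MPEC, and at 853 ± 114 CPM and 631 ± 40.6 CPM in KO cells. Summed core histones were at 217 ± 22.3 CPM in WT SLEC and 215 ± 68.2 CPM in WT MPEC, within the spread of the libraries. In KO cells they were at 202 ± 84.5 and 236 ± 86.3 CPM.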

How the data were processed

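Total RNA of 12 sorted libraries had been made into SMART-Seq Stranded libraries, per the labels' protocols. The authors deposited raw counts per gene; STAR 2.6.1a, bcl2fastq and the build GRCm38 are named per the submitters' processing notes, while the counting program, its strand setting and the treatment of reads with several matches are unnamed. Members and lists were chosen with earlier results of these data known.

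All 12 libraries (7603551 to 14026594 counts; the filter kept at least 99.7% of them) entered 1 fit in edgeR 4.0.16 under R 4.3.3: TMM scaling, filterByExpr, a robust quasi-likelihood fit with 1 term per group, and Benjamini-Hochberg adjustment over 14460 genes, with 6 residual degrees of freedom and a median prior of 11.9. A call is an adjusted p under 0.05. CPM use the TMM-scaled library size. In data simulated for WT SLEC over time, 28% of 100 genes at a log2 change of -1 and 69% of 100 at -2 were called, and 6 of 13683 unchanged genes. Genes were named by rule, beginning with the 4 highest tested members of each family. The rule also took up to 12 called members of smallest adjusted p per comparison, or the 3 of smallest p. It added the 3 lowest members and up to 4 genes of each list. Other tested members, among them Hist1h2ah, Hist1h4k, Hist1h2bh and Hist3h2ba, were chosen after their values were seen. Transcripts came from GENCODE M21 and promoters from RefSeq. Alternatives were other scalings, filters, DESeq2 1.42.0, a replicate block, only the groups compared, and leaving out each library. The summed markers of MPEC are not reported here.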

Additional observations from a re-analysis of the deposited data

How the results depend on the processing

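Counts are histone members called at an adjusted p under 0.05. Leaving out 1 library at a time gave 31 to 50 members for day 14 against day 7 in WT SLEC and 39 to 51 in KO SLEC, 0 to 18 for KO against WT in SLEC of day 7 and 0 to 2 for the mean of the 3 populations. It gave 0 to 2 for MPEC against SLEC in either genotype and 0 to 1 for how far the KO effect in SLEC differed from day 7 to day 14. A lone remaining library is assumed to vary like the other groups, and the share of all genes called in each omission is not given. DESeq2 called 1 member and the fit with no filter on low counts 1 member for the mean KO effect. For MPEC against SLEC in WT cells, no filter gave 1 and only the groups compared gave 1, and in KO cells total counts gave 0, DESeq2 2, no filter 3 and only the groups compared 2. For the fall in WT SLEC, only the groups compared gave 32 and the other planned settings 45 to 49. Replicate numbers were not shown to pair libraries: correlations of same-numbered libraries ran from -0.133 to 0.117. With a replicate block, 47 members were called over time in WT SLEC, 50 in KO SLEC, 1 for MPEC against SLEC in KO cells and 0 elsewhere. No direction of a value called with all 12 libraries reversed. For KO against WT in SLEC of day 7 no member was called with all 12 libraries, and the direction depended on the library left out. The members' median log2 difference there was 1.25 without WT replicate 2 and -0.19 without WT replicate 1. With total counts as the only scaling the median of all genes moved to 0.22 in the WT time comparison, and that of the members was -3.60. Members near 0 counts on day 14 are limited by depth.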
